A study of Mus musculus with 6 samples.

Results

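The myosin heavy chain, light chain and light chain kinase genes of the heart were examined in RNA-seq of isolated adult mouse cardiomyocytes (CMs). The 9 members were chosen by name, with earlier results of these data known. They were Myh6, Myh7 and Myh7b among the heavy chains, Myl2, Myl3, Myl4 and Myl7 among the light chains, and the kinases Mylk3 and Mylk4. All 9 were present among the 16448 genes of the expression table, and 8 of them entered the test, since Myl7 did not reach the minimum of 10 normalized counts in at least 3 samples that 11364 genes met.

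Myosin II, the motor of the sarcomere, is built from a pair of heavy chains that hydrolyse ATP and bind actin, each carrying an essential and a regulatory light chain on its lever arm. The adult mouse ventricle uses mainly the fast α heavy chain encoded by Myh6, whereas the slower and more economical β heavy chain encoded by Myh7 is dominant before birth and returns under pressure overload or low thyroid hormone. The relation of Myh7 to Myh6 is therefore a common readout of fetal gene expression in rodent hearts. Phosphorylation of the regulatory light chain by cardiac kinases raises the force at a given calcium concentration.

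CMs of 3 CtrlCre and 3 Cpt1bcKO mice on a C57BL/6 background, aged 8 to 12 weeks, were compared. Mice of both groups carried αMHC-Cre (pos/+), a transgene in which regulatory sequence of the Myh6 gene drives Cre recombinase in CMs. CtrlCre mice had intact Cpt1b alleles (+/+), and Cpt1bcKO mice had floxed ones (fl/fl), so that Cpt1b was deleted in CMs from embryonic stages onward. Cpt1b encodes the muscle carnitine palmitoyltransferase 1 that commits long-chain fatty acids to import into mitochondria. Hearts were perfused with enzyme before the atria were separated from the ventricles, and myocytes were collected by low-speed centrifugation without sorting.

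The values are normalized counts, read counts that the authors divided by a size factor per sample and rounded. They summed to 13393411 to 31722217 per sample, of which the mitochondrial rRNA gene mt-Rnr2 made up 63.2% to 64.6% in CtrlCre samples and 61.8%, 72.6% and 80.8% in Cpt1bcKO samples 1, 2 and 3. Cpt1bcKO samples 2 and 3 thus stood apart, with the highest sums and mt-Rnr2 shares, and Cpt1bcKO sample 1 lay near the controls. The genes that are neither mitochondrial-encoded nor rRNA summed to 3146414 to 3551692. The targeted gene Cpt1b had 1861, 893 and 1443 normalized counts in CtrlCre samples 1, 2 and 3 and 211, 353 and 285 in Cpt1bcKO samples 1, 2 and 3, a log2 fold change of −2.27 (SE 0.27, adjusted P = 0.00338, limma with Benjamini–Hochberg adjustment over all genes tested). Xist, transcribed from the inactive X chromosome of females, was at 957 in CtrlCre sample 1 and 1080 in Cpt1bcKO sample 1, and at 41, 23, 34 and 78 in the other samples, so number 1 stood apart from numbers 2 and 3 in both groups.

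The ventricular origin was checked against marker genes. Of 10 atrial markers, Sln, Bmp10 and Fgf12 had no row in the table and 5 passed the filter, and the summed level of the list was 628 to 808 normalized counts in CtrlCre samples and 311 to 537 in Cpt1bcKO samples. Much of this sum was Kcnj3, a subunit of the acetylcholine-gated potassium channel, with 560, 642 and 587 against 149, 199 and 396 normalized counts, which fell (log2 fold change −1.38, adjusted P = 0.0491 in limma). The 5 tested atrial markers included 3 with higher and 2 with lower levels, and the list median of 0.86 was 0.05 without CtrlCre sample 1. The 3 higher ones, Kcna5 (0.86), Dkk3 (0.87) and Gja5 (1.01), did not pass the test. The summed level of 8 general CM markers was 412881 to 578175 in CtrlCre and 270842 to 507657 in Cpt1bcKO samples. Most of this sum was Ttn, with 229054, 395949 and 364082 against 151007, 340512 and 360030 normalized counts. The order of the sums within each group was that of Ttn, so their overlap says little about the other markers.

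Each of the 3 heavy chain genes holds a microRNA in an intron, on the same strand. The mature microRNAs are shown with RefSeq coordinates on GRCm38.p6, 5′ to 3′, with the seed (bases 2 to 8) in capitals. The Myh6 gene carries miR-208a in intron 29 of 38, the Myh7 gene carries miR-208b in intron 31 of 40, and the Myh7b gene carries miR-499 in intron 19 of 41.
miR-208a-3p (chr14:54949072-54949093, minus strand): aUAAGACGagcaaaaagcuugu
miR-208b-3p (chr14:54975710-54975731, minus strand): aUAAGACGaacaaaagguuugu
miR-499-5p (chr2:155622893-155622913, plus strand): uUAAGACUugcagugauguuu
The mature miR-208a-3p and miR-208b-3p share their seed and differ at 3 of 22 positions, counted from the 5′ end, by G10A, A16G and C18U. Mature miR-499-5p differs from miR-208a-3p at 9 of the 21 positions compared, of which G8U is the only difference in the seed. The mature microRNAs were not measured in these libraries. The hairpin of Mir208a had 0 to 2 normalized counts per sample, and that of Mir208b had 3, 5 and 3 in CtrlCre and 1, 7 and 10 in Cpt1bcKO samples, too few for the filter.

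Promoter windows of Myh6, Myh7 and Mylk4 are shown because Myh7 over Myh6 was the ratio whose groups did not overlap and Mylk4 had the lowest P value among the members. RefSeq windows (GRCm38.p6) run from 250 bases before to 50 bases after an annotated start, and the first 270 bases of each are printed 5′ to 3′ on the strand of the gene. Capitals mark the MCAT motif CATTCC, which TEAD factors recognize, the letters TATAAA, and AGGTCA, a half-site of the receptors for thyroid hormone and other nuclear ligands. Each motif was searched on both strands.
Myh6 (chr14:54966588-54966857, minus strand): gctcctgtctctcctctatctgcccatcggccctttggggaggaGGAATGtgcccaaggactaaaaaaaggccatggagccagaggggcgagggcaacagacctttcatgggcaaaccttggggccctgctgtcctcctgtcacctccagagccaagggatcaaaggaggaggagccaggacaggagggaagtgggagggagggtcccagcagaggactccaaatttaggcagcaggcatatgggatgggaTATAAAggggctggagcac
Myh7 (chr14:54994607-54994876, minus strand): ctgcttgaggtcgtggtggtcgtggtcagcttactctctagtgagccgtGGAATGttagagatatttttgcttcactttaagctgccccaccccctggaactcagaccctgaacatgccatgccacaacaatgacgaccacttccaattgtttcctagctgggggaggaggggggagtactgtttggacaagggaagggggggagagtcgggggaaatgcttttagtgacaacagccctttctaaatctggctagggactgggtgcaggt
Mylk4 (chr13:32783945-32784214, minus strand): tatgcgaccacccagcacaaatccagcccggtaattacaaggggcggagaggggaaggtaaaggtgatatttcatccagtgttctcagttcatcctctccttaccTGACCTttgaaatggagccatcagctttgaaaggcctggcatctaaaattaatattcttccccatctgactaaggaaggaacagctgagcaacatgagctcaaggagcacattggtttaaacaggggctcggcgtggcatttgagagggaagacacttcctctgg
The 9 members have 12 windows, because Myh7, Myl2 and Mylk3 have more than 1 annotated start. The MCAT motif began 206 bases before the annotated start of Myh6 and 201 bases before the upstream one of the Myh7 starts, both in the reverse orientation GGAATG. It was present in 5 of the 12 windows (Myh6, Myl3, Myl7 and 1 window each of Myh7 and Mylk3), and in 14.7% of all 32851 promoter windows. The letters TATAAA were found for Myh6, directly after the annotated start, and for Myl2, 216 bases before 1 of its starts, and in 13.6% of all windows. The AGGTCA half-site was found for Myh7b, Myl2 and Mylk4 and in 16.3% of all windows. The GATA motif AGATAA was found for Myh7b, Myl2 and Mylk3 (11.2% of all windows), the MEF2 core TAAAAATA for Myh7b (2.72%) and the CArG box, bound by SRF, for Myl3 and Myl7 (1.63%). Both Myl2 windows (chr5:122092474-122092773 and chr5:122092939-122093238) lie upstream of the Myl2 gene coordinates given below, which begin at 122100951. The Mylk4 window also lies wholly upstream of its gene coordinates given below, which end at 32781716 on the minus strand. For Mylk3, 1 window (chr8:85380992-85381291) lies just upstream of the coordinates given below, which end at 85380978. These matches describe letters in a window and are not measurements of binding.

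Compared per kilobase of the principal transcript, the members spanned more than 3 orders of magnitude within each sample. Myl3 stood first in all 6 samples, with 36600 ± 7461 normalized counts per kilobase in CtrlCre and 30031 ± 8521 in Cpt1bcKO CMs (mean ± SD, n = 3 each). Myh6 followed with 19892 ± 4032 and 14170 ± 967, and Myl2 with 15413 ± 3547 and 11099 ± 1870. These neighbours were close, because Myl2 lay above Myh6 in CtrlCre sample 3 (18216 against 18010) and below it in the other 5 samples. The order of Myl3 and Myh6 depended on the length used, since division by the union of all annotated exons put Myl3 at 0.928 of Myh6 in CtrlCre means in place of 1.84.

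Mylk3 was at rank 4 in all 6 samples, with 1057 ± 57.4 and 793 ± 237 normalized counts per kilobase. Myh7 (301 ± 207 and 478 ± 122) and Mylk4 (241 ± 66.8 and 116 ± 32.2) came next and exchanged places in CtrlCre sample 2. In Cpt1bcKO sample 2, Myh7b (90.4) also lay above Mylk4 (86.3). Below them, Myh7b (40.4 ± 3.11 and 78.0 ± 38.8) and Myl4 (58.7 ± 46.1 and 63.6 ± 28.8) were not separated by their spread in CtrlCre CMs. Myl7 was last in all 6 samples at 14.7 ± 15.4 and 14.7 ± 2.59. This place also depended on the length used. With the union of exons, the means of Myl4 (11.9 ± 9.37 and 12.9 ± 5.86) lay below those of Myl7.

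**Figure D1:**
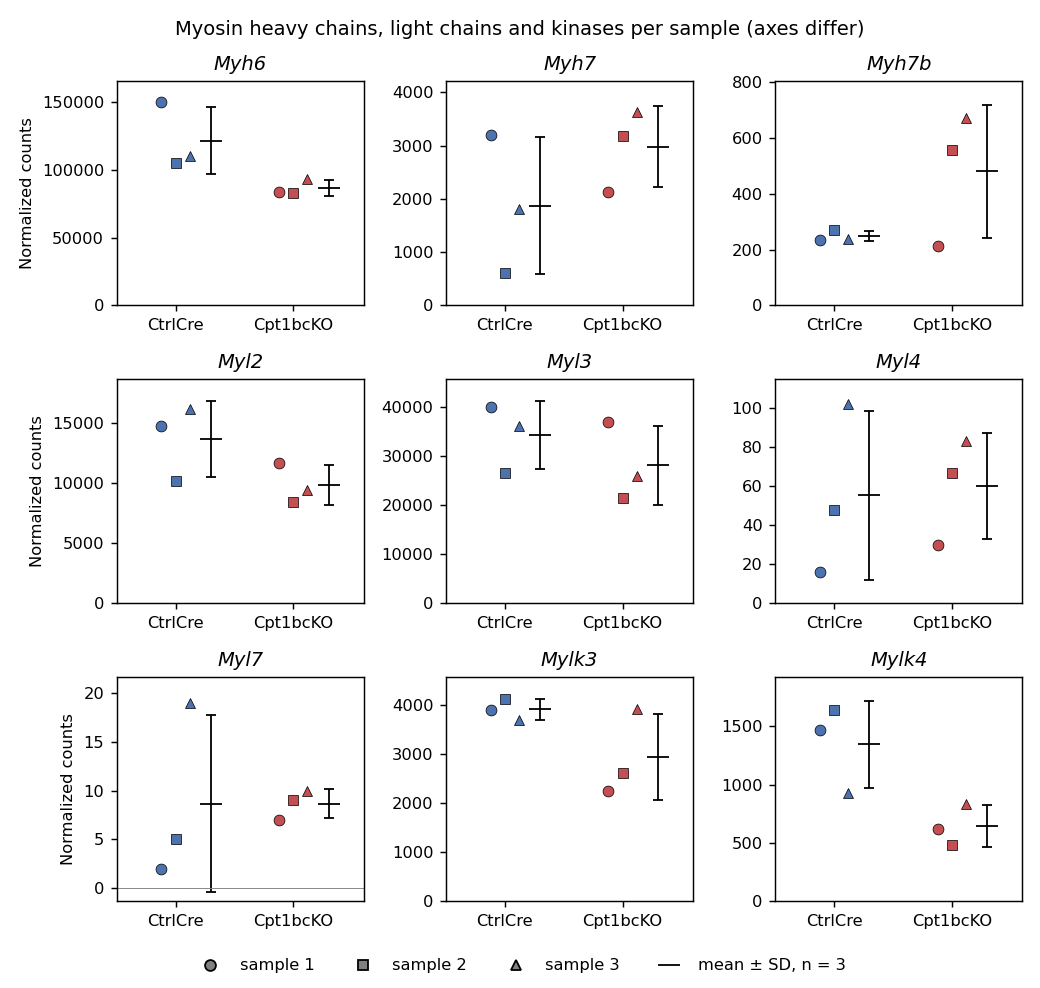
Normalized counts (y axes, linear, different for each gene) of the 9 genes in the 3 CtrlCre samples (blue) and the 3 Cpt1bcKO samples (red), with circle, square and triangle for samples 1, 2 and 3 and the bar for mean ± SD. The groups do not overlap for Myh6 and Mylk4, and a single sample lies away from the other 2 of its group for Myh7b (Cpt1bcKO 1) and Mylk3 (Cpt1bcKO 3).

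The first question was whether the level of each member differed between Cpt1bcKO and CtrlCre CMs. Of the 8 members tested, 3 were higher and 5 lower in Cpt1bcKO CMs, and their median log2 fold change was −0.38 against −0.0013 over all genes tested. No member reached an adjusted P value below 0.05 in limma's moderated test, which 178 of 11364 genes did (1.57%). At an unadjusted P value below 0.05, the threshold of the study's methods, 3 of the 8 members passed, against 13.9% of all genes tested. Myh7b rose, as did 6.66% of all genes, and Mylk3 and Mylk4 fell, as did 7.22%. The values of the groups did not overlap in 2 of the 8 members, Myh6 and Mylk4, both lower in Cpt1bcKO CMs. This was seen in 18.7% of all genes, 9.13% with higher and 9.60% with lower values in Cpt1bcKO CMs. These counts are 1 to 3 of 8 genes, and the family was not tested against other genes. Rescaling all samples to their totals without mitochondrial-encoded and rRNA genes moved the median of all genes to 0.11 and the unadjusted calls from 757 higher and 821 lower to 1221 higher and 505 lower, and no tested member changed direction under it. The same rescaling ended the unadjusted call of Mylk3 (log2 fold change −0.34, unadjusted limma P of 0.0943) and made one for Myh7 (1.04, unadjusted limma P of 0.0482). When single samples were left out, 1 to 5 of the 8 members passed the unadjusted test, and Mylk4 was among them each time. The calls over all genes moved too, with 972 genes where 1 member passed (without Cpt1bcKO sample 2) and 2208 where 5 did (without Cpt1bcKO sample 1). In bulk RNA, fewer transcripts per CM and fewer CMs in the preparation cannot be told apart.

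**Figure D2:**
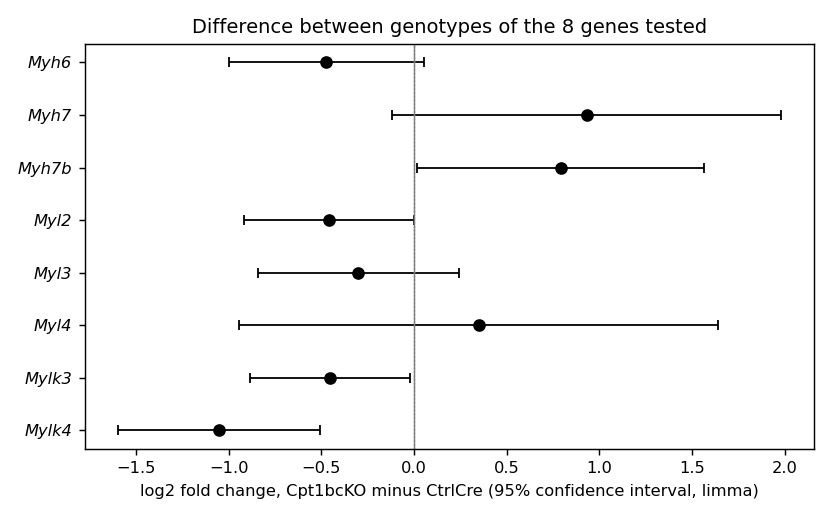
Log2 fold change of the 8 tested genes (x axis, Cpt1bcKO minus CtrlCre, points) with 95% confidence intervals from limma (bars), and a dotted line at the median of all genes tested, which falls on 0 at this scale. The intervals of Mylk4 (−1.60 to −0.51), Mylk3 (−0.89 to −0.02) and Myh7b (0.02 to 1.56) leave out 0.

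Myh6 (ENSMUSG00000040752, minus strand of chromosome 14 from 54941981 to 54966641, GRCm38) encodes the α heavy chain and is the predominant motor of the adult mouse ventricle. It had 149899, 104814 and 110093 normalized counts in CtrlCre samples 1, 2 and 3 and 83563, 82872 and 93434 in Cpt1bcKO samples 1, 2 and 3. Every Cpt1bcKO sample was below every CtrlCre sample, and CtrlCre sample 1 was the highest of all. The log2 fold change was −0.47 (SE 0.24, 95% confidence interval −0.999 to 0.05), with an unadjusted P of 0.0733 and an adjusted P of 0.407, so the difference did not pass the test. Without CtrlCre sample 1 it was −0.31.

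Myh7 (ENSMUSG00000053093, minus strand of chromosome 14 from 54970688 to 54994634) encodes the β heavy chain and lies next to Myh6, 4046 bases away from it. It had 3195, 612 and 1818 normalized counts in the CtrlCre samples and 2139, 3175 and 3626 in the Cpt1bcKO samples. The groups overlapped, since the highest CtrlCre sample exceeded 2 of the Cpt1bcKO samples, and the CtrlCre samples differed 5.22-fold among themselves. The log2 fold change of 0.93 (SE 0.47, interval −0.12 to 1.98, adjusted P = 0.418) did not pass the test. It rested on CtrlCre sample 2, without which it was 0.27, and it was 1.46 without CtrlCre sample 1.

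The reads that can be assigned to Myh6 and Myh7 are limited by their similarity. Stretches of 75 bases, the read length, that occur in both principal transcripts number 939 and make up 15.5% of those of Myh6 and 15.3% of those of Myh7, and reads matching several genes were excluded by the authors. Genes on the opposite strand cover 13.3% of the annotated exon bases of Myh7, among them the antisense RNA Mhrt, and the use of strand in counting is not given in the sources used here. Mhrt, a long noncoding RNA of cardiac myocytes that begins between the 2 heavy chain genes and overlaps 3662 bases of Myh7, had 350, 457 and 370 normalized counts in CtrlCre and 222, 506 and 602 in Cpt1bcKO samples. Its groups overlapped (log2 fold change 0.06, SE 0.31, adjusted P = 0.953).

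Myh7b (ENSMUSG00000074652, plus strand of chromosome 2 from 155611212 to 155634307) is an ancient slow-type heavy chain gene, expressed in heart, slow muscle and brain, and the host of miR-499. It had 236, 271 and 240 normalized counts in the CtrlCre samples and 213, 557 and 672 in the Cpt1bcKO samples. The CtrlCre samples were close to each other, Cpt1bcKO samples 2 and 3 were above all of them and Cpt1bcKO sample 1 was below all of them. The log2 fold change was 0.79 (SE 0.35, interval 0.02 to 1.56), with an unadjusted P of 0.0460 and an adjusted P of 0.349. The call depended on single samples. Without Cpt1bcKO sample 1 it was kept, and the log2 fold change was 1.30 with an adjusted P of 0.00351 in limma. In the other 5 fits that each left out a sample, the unadjusted call was lost, with log2 fold changes down to 0.47 without Cpt1bcKO sample 3. Cpt1bcKO sample 1 was also the only Cpt1bcKO sample with a high Xist value and the only one with an mt-Rnr2 share and a sum near the controls, so the high Myh7b values lay in the 2 libraries that stood apart. Mhrt followed the same order. The part of sex and of these library properties in Myh7b was not tested.

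Ratios between members within a sample do not depend on the size factor, except through the 1 added to both values before the log2. This addition matters for low genes such as Myl7. Log2 differences include it, and the printed ratios do not. The exact 2-sided permutation test was used to compare 10 such ratios. With 3 samples per group its smallest possible P is 0.1, so that no ratio could pass 0.05. The ratio of Myh7 to Myh6 was 2.13%, 0.584% and 1.65% in CtrlCre samples 1, 2 and 3 and 2.56%, 3.83% and 3.88% in Cpt1bcKO samples 1, 2 and 3. All Cpt1bcKO samples were above all CtrlCre samples, although Cpt1bcKO sample 1 was close to CtrlCre sample 1. The mean log2 ratio was 1.40 higher in Cpt1bcKO CMs, a 2.64-fold difference, with an exact permutation P of 0.1, the smallest possible, and 0.667 after Benjamini–Hochberg adjustment over the 10 ratios. It was the only 1 of the 10 ratios whose groups did not overlap. Under random assignment, any 1 ratio would separate in this way with a probability of 0.1. Leaving out a single sample gave log2 differences from 0.84, without CtrlCre sample 2, to 1.78, without CtrlCre sample 1.

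The ratio of Myh7b to Myh6 was 0.157%, 0.259% and 0.218% in CtrlCre samples and 0.255%, 0.672% and 0.719% in Cpt1bcKO samples. Cpt1bcKO sample 1 fell just below CtrlCre sample 2, and the other two lay well above all controls. The log2 difference was 1.26 (exact permutation P = 0.2, adjusted 0.667). Myh7b over Myh7 was 7.39%, 44.3% and 13.2% in CtrlCre and 9.96%, 17.5% and 18.5% in Cpt1bcKO samples, with overlapping groups (log2 difference −0.14, exact permutation P = 0.9).

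Per kilobase of transcript, Myh6 provided 97.8%, 99.2% and 98.2% of the 3 heavy chains in CtrlCre samples and 97.3%, 95.8% and 95.7% in Cpt1bcKO samples. Myh7 provided 2.05%, 0.568% and 1.59% in CtrlCre and 2.44%, 3.60% and 3.64% in Cpt1bcKO samples. Myh7b provided 0.153%, 0.254% and 0.212% in CtrlCre and 0.246%, 0.638% and 0.683% in Cpt1bcKO samples. The α heavy chain was thus by far the most abundant heavy chain transcript in every sample of both genotypes. The share of Myh7 and Myh7b together was 1.61 ± 0.71% in CtrlCre and 3.75 ± 0.92% in Cpt1bcKO CMs (mean ± SD, n = 3 each).

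**Figure D3:**
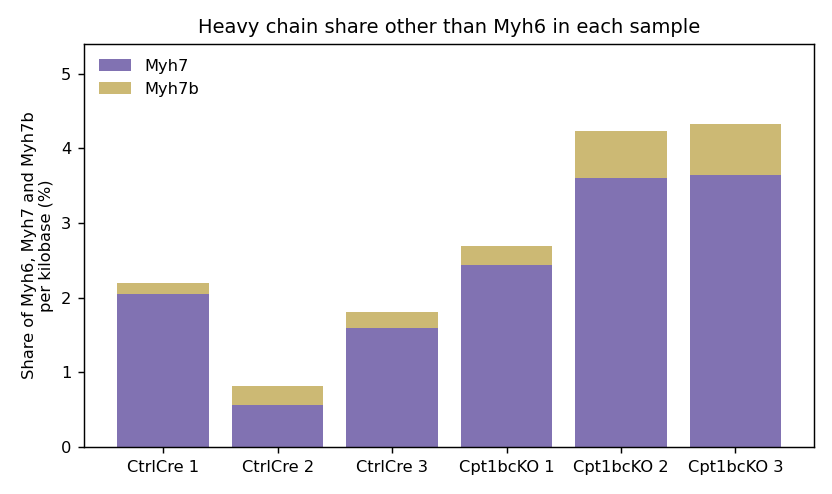
Share of Myh7 (purple) and Myh7b (yellow, stacked on it) in the sum of Myh6, Myh7 and Myh7b, each per kilobase of transcript (y axis, percent, from 0), in each of the 6 samples. The sum of both runs from 0.823% to 2.20% in CtrlCre and from 2.69% to 4.33% in Cpt1bcKO samples, and Myh6 makes up the rest.

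Of the light chains, Myl2 (ENSMUSG00000013936, plus strand of chromosome 5 from 122100951 to 122113472) encodes the ventricular regulatory light chain, the substrate of cardiac myosin kinase. It had 14755, 10157 and 16194 normalized counts in CtrlCre samples and 11692, 8439 and 9471 in Cpt1bcKO samples. Cpt1bcKO samples 2 and 3 were below all CtrlCre samples, but sample 1 exceeded CtrlCre sample 2. The log2 fold change was −0.46 (SE 0.21, interval −0.92 to 0.00), with an unadjusted P of 0.0507 and an adjusted P of 0.361 in limma. Without single samples it ranged from −0.66 (without CtrlCre sample 2) to −0.32 (without CtrlCre sample 3).

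Myl3 (ENSMUSG00000059741, plus strand of chromosome 9 from 110763646 to 110769798) encodes the ventricular essential light chain. It had 40108, 26537 and 36238 normalized counts in CtrlCre samples and 36975, 21443 and 25998 in Cpt1bcKO samples. Samples 1 were highest and samples 2 lowest in both groups, and the groups overlapped (log2 fold change −0.30, SE 0.24, adjusted P = 0.633). The value moved with single samples, from −0.52 without Cpt1bcKO sample 1 to −0.12 without Cpt1bcKO sample 2, and was −0.18 without CtrlCre sample 1 and −0.48 without CtrlCre sample 2. The ratio of Myl3 to Myl2 was 2.72, 2.61 and 2.24 in CtrlCre and 3.16, 2.54 and 2.74 in Cpt1bcKO samples (log2 difference 0.16, exact permutation P = 0.4). With single samples left out this difference ran from 0.07 (without CtrlCre sample 3 or Cpt1bcKO sample 1) to 0.23 (without Cpt1bcKO sample 2).

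Myl4 (ENSMUSG00000061086, plus strand of chromosome 11 from 104550663 to 104587215) and Myl7 (ENSMUSG00000020469, minus strand of chromosome 11 from 5896637 to 5898782) encode the essential and the regulatory light chain of the atria. Myl4 had 16, 48 and 102 normalized counts in CtrlCre and 30, 67 and 83 in Cpt1bcKO samples. The CtrlCre samples alone spanned the whole range of the Cpt1bcKO samples, 6.38-fold from the lowest to the highest. Its log2 fold change of 0.35 (SE 0.58, adjusted P = 0.836) turned to −0.34 without CtrlCre sample 1.

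Myl7 had 2, 5 and 19 normalized counts in CtrlCre and 7, 9 and 10 in Cpt1bcKO samples. These values were too low for the filter, and their counting error is not known from the rounded values. In a fit without the filter the log2 fold change of Myl7 was 0.43 (SE 0.65, adjusted P = 0.847). The ratio of Myl7 to Myl2 was at most 0.117% in CtrlCre and 0.107% in Cpt1bcKO samples, and that of Myl4 to Myl3 at most 0.281% and 0.319%. Neither atrial to ventricular ratio separated the groups, with log2 differences of 0.89 (exact permutation P = 0.4) and 0.65 (exact permutation P = 0.5). With single samples left out, they ranged for Myl7/Myl2 from 0.20 without CtrlCre sample 1 to 1.5 without CtrlCre sample 3, and for Myl4/Myl3 from −0.16 without CtrlCre sample 1 to 1.29 without Cpt1bcKO sample 1.

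Heavy and regulatory light chain of the main ventricular motor, Myh6 and Myl2, had nearly equal log2 fold changes. The ratio of Myh6 to Myl2 was 10.2, 10.3 and 6.80 in CtrlCre and 7.15, 9.82 and 9.86 in Cpt1bcKO samples, with overlapping groups and a log2 difference of −0.01 (exact permutation P = 1). Myl4 over Myl7 likewise overlapped, from 5.37 to 9.60 in CtrlCre and from 4.29 to 8.30 in Cpt1bcKO samples (log2 difference −0.08, exact permutation P = 0.9).

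**Figure D4:**
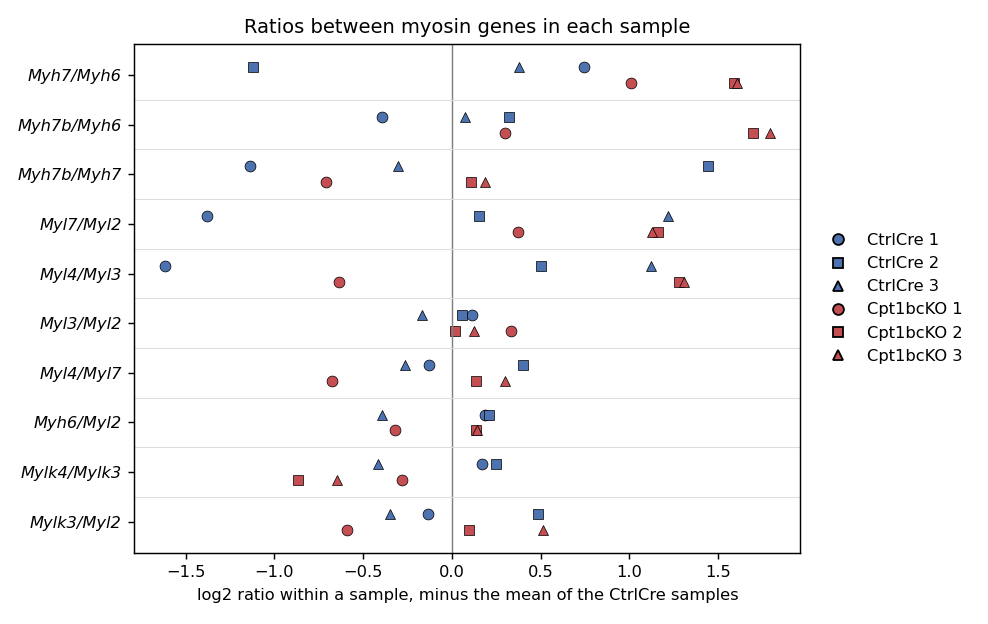
Log2 ratio of 10 gene pairs within each sample, minus the mean of the 3 CtrlCre samples (x axis), with CtrlCre in blue, Cpt1bcKO in red, and circle, square and triangle for samples 1, 2 and 3. Only for Myh7/Myh6 do all 3 Cpt1bcKO samples lie on the same side of all 3 CtrlCre samples.

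Mylk3 (ENSMUSG00000031698, minus strand of chromosome 8 from 85324303 to 85380978) encodes the cardiac myosin light chain kinase, which phosphorylates the ventricular regulatory light chain. It had 3897, 4122 and 3698 normalized counts in CtrlCre samples and 2253, 2620 and 3920 in Cpt1bcKO samples. Cpt1bcKO samples 1 and 2 were below all controls, and sample 3 was within their range. The log2 fold change was −0.45 (SE 0.20, interval −0.89 to −0.02), with an unadjusted P of 0.0421 and an adjusted P of 0.339. The unadjusted call was kept in 1 of 6 fits that each left out a sample, the fit without Cpt1bcKO sample 3 (log2 fold change −0.68). Without Cpt1bcKO sample 1 the log2 fold change was −0.28, with an unadjusted P of 0.139.

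Mylk4 (ENSMUSG00000044951, minus strand of chromosome 13 from 32700834 to 32781716) encodes a further kinase of this family with high expression in heart and skeletal muscle. It had 1468, 1641 and 928 normalized counts in CtrlCre samples and 621, 481 and 837 in Cpt1bcKO samples. All Cpt1bcKO samples were below all CtrlCre samples, with the third samples of both groups close to each other. The log2 fold change was −1.05, a 2.07-fold lower level (SE 0.25, interval −1.60 to −0.51), with an unadjusted P of 0.00149 and an adjusted P of 0.0692 in limma. The unadjusted call was kept in all 6 fits that left out a sample, with log2 fold changes from −1.30 to −0.86 and adjusted P values from 0.0472 to 0.317. With the sample number as a block the adjusted limma P was 0.0326, but the labels do not say whether the numbers pair the samples.

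The ratio of Mylk4 to Mylk3 was 37.7%, 39.8% and 25.1% in CtrlCre and 27.6%, 18.4% and 21.4% in Cpt1bcKO samples. Cpt1bcKO sample 1 lay above CtrlCre sample 3, so the groups overlapped (log2 difference −0.60, exact permutation P = 0.2, adjusted 0.667). The ratio of Mylk3 to Myl2, kinase to substrate, was 26.4%, 40.6% and 22.8% in CtrlCre and 19.3%, 31.1% and 41.4% in Cpt1bcKO samples, a log2 difference of 0.01 (exact permutation P = 1).

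Members were also characterized by the genes whose pattern over the 6 samples was most like theirs, measured as the SD of the log2 ratio to the member over 4629 candidate genes whose mean reached 100 normalized counts. For Mylk4 these were Kcnj2, the inward rectifier potassium channel Kir2.1 (SD 0.193), Tcaim (0.225) and Fign (0.238). Kcnj2 had 829, 975 and 674 normalized counts in CtrlCre and 310, 327 and 522 in Cpt1bcKO samples. These values are a description, since Kcnj2 was chosen for its likeness to Mylk4. For Mylk3 the closest was Adcy5, the main adenylyl cyclase of CMs (SD 0.0535), followed by Arrdc3 and Akap13. For Myh6 it was Slc8a1, the cardiac sodium–calcium exchanger (SD 0.0637), followed by Dusp27 and B4gat1.

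For Myl3 the closest gene was Psmc5 (SD 0.0461), before Cwc15 and Usf2, and for Myl2 it was Rps15a (SD 0.0643), before H1f0 and Add3. For Myh7b it was Hmcn1 (SD 0.197), before the predicted genes Gm45222 and Gm16185. Myl4 and Myl7 shared Flna and Nes as their closest genes, with SDs of 0.381 and 0.420 for Myl4 and of 0.259 and 0.347 for Myl7, and the next were Nrp2 for Myl4 and Cd59a for Myl7. Flna, a widely expressed actin crosslinker, had 94, 227 and 441 normalized counts in CtrlCre and 239, 310 and 300 in Cpt1bcKO samples, lowest in CtrlCre sample 1 as Myl4 and Myl7 were. Myh7 had no close companion, since its nearest gene, Rpl3, reached an SD of 0.607, against a median SD of 1.0 over all candidates. Sars and Pnpla7 came after it.

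Other genes of the motor and its partners were read from lists chosen by function. Of 11 other heavy chain genes, 4 were tested and none passed the unadjusted test. Their median was 0.14 on the log2 scale, −0.10 without CtrlCre sample 1 and 0.31 without CtrlCre sample 3. They were the nonmuscle Myh9 (0.23), Myh10 (0.05) and Myh14 (−0.29) and the smooth muscle Myh11 (0.74, SE 0.76). Skeletal Myh1, Myh2 and Myh4 had at most 7 normalized counts in any sample. Of 8 other light chains, 6 were tested, 3 higher and 3 lower, with a median of −0.09 (0.04 without Cpt1bcKO sample 3, −0.17 without Cpt1bcKO sample 1). Among them only Myl1, an essential light chain of fast muscle, passed the unadjusted test, with 46, 71 and 68 normalized counts in CtrlCre against 29, 43 and 34 in Cpt1bcKO samples (log2 fold change −0.78, adjusted P = 0.217).

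Of 10 other kinases and phosphatase genes that act on light chains, 9 were tested, 3 higher and 6 lower, with a median of −0.18 and no adjusted call. The kinase gene Rock1 fell at the unadjusted threshold, from 1439, 1322 and 1625 normalized counts in CtrlCre to 893, 969 and 1035 in Cpt1bcKO samples, without overlap (log2 fold change −0.60, SE 0.14, adjusted P = 0.0695). The kinase gene Dapk3 rose at that threshold (0.49, SE 0.22, adjusted P = 0.355). Ppp1r12b, which encodes the heart and muscle targeting subunit of myosin phosphatase, was at −0.24 (adjusted P = 0.441).

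Partners of the myosin in the thick filament and M-band showed no common direction. Of 17 listed, 14 were tested, 6 higher and 8 lower, and 3 passed the unadjusted test, all higher. Their median of −0.01 was 0.08 without Cpt1bcKO sample 2 and −0.08 without Cpt1bcKO sample 3. Among them were Trim54, a muscle ubiquitin ligase (0.40), and Hsp90aa1, an inducible chaperone (0.40), with adjusted P values of 0.263 and 0.228. Myosin-binding protein C, Mybpc3, had 14782, 13714 and 15671 normalized counts in CtrlCre and 15966, 18976 and 20791 in Cpt1bcKO samples, without overlap but short of the test (log2 fold change 0.33, SE 0.17, adjusted P = 0.410). Ttn, the giant titin, was lowest in sample 1 of each group, with 229054, 395949 and 364082 against 151007, 340512 and 360030 normalized counts (log2 fold change −0.28, adjusted P = 0.807). Whether the lower Ttn values of samples 1 relate to the member values of these samples was not tested.

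Of 13 thin filament genes, 12 were tested, 2 higher and 10 lower, with a median of −0.31 (−0.19 without CtrlCre sample 1), and 5 fell at the unadjusted threshold without an adjusted call. Tnni3, cardiac troponin I, had 22892, 12303 and 15698 normalized counts in CtrlCre and 11778, 5834 and 8102 in Cpt1bcKO samples, a log2 fold change of −0.996 (SE 0.28, adjusted P = 0.136). Tpm1, α-tropomyosin, was at −0.81 (adjusted P = 0.105), Lmod2 at −0.61, Tmod1 at −0.43 and Nebl at −0.35. The largest higher value was that of Tpm2, another tropomyosin, at 0.72 (adjusted P = 0.587). Actc1, cardiac α-actin, was at −0.31 and did not pass (adjusted P = 0.440).

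Among 25 regulators known to act on the Myh6 and Myh7 genes, 23 were tested, 7 higher and 16 lower, with a median of −0.18 (−0.31 without CtrlCre sample 2, −0.10 without CtrlCre sample 3). At the unadjusted threshold 8 fell and 1 rose, and none was called after adjustment. Myocd, a coactivator of SRF, had 444, 459 and 490 normalized counts in CtrlCre and 248, 342 and 289 in Cpt1bcKO samples (log2 fold change −0.67, SE 0.16, adjusted P = 0.0737). Mef2a was at −0.47, Mef2c at −0.37, Gata6 at −0.55, Tbx5 at −0.79, Hand2 at −0.60 and Hopx at −0.83, and Gata4 rose by 0.34.

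Of the thyroid hormone receptors, through which Myh6 is activated and Myh7 repressed, Thrb fell at the unadjusted threshold (log2 fold change −0.53, SE 0.20, adjusted P = 0.258), with overlapping values of 233, 264 and 193 in CtrlCre and 136, 146 and 197 in Cpt1bcKO samples. Thra was at −0.21 (adjusted P = 0.617). Tead1, the main MCAT-binding factor of the heart, was at −0.11 (adjusted P = 0.815), and Sox6, a repressor of slow-fibre genes and a known target of miR-499, was at −0.42 (adjusted P = 0.438).

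Markers of other cells were read in the same way. Of 8 fibroblast markers, 7 were tested and all 7 rose at the unadjusted threshold, Col1a1 and Lum also after adjustment, with a median of 1.12 and sums of 498 to 785 normalized counts in CtrlCre and 1108 to 1338 in Cpt1bcKO samples. The 8 CM markers were all lower, with a median of −0.38, 3 of them (Tnni3, Pln and Atp2a2) past the unadjusted threshold. The 8 endothelial markers were all higher, 1 of them (Tie1) past the threshold, with sums of 1241 to 2620 in CtrlCre, lowest in CtrlCre sample 1, and 2308 to 2639 in Cpt1bcKO samples. Their median of 0.34 was 0.01 without CtrlCre sample 1. All 5 ventricular identity markers were tested, 4 fell at the unadjusted threshold and Irx4 was at 0.23, with a median of −0.82. Of 8 smooth muscle and pericyte markers 6 were tested, with a median of 0.08 that was −0.44 without CtrlCre sample 1, and Acta2 fell at the unadjusted threshold (−1.20, adjusted P = 0.0835), and of 8 macrophage and leukocyte markers 5 were tested, with a median of 0.07 (−0.09 without CtrlCre sample 2, 0.35 without CtrlCre sample 1) and no call. The part of these markers in the lower Myh6, Myl2, Mylk3 and Mylk4 values and in the ratio of Myh7 to Myh6 was not tested.

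**Figure D5:**
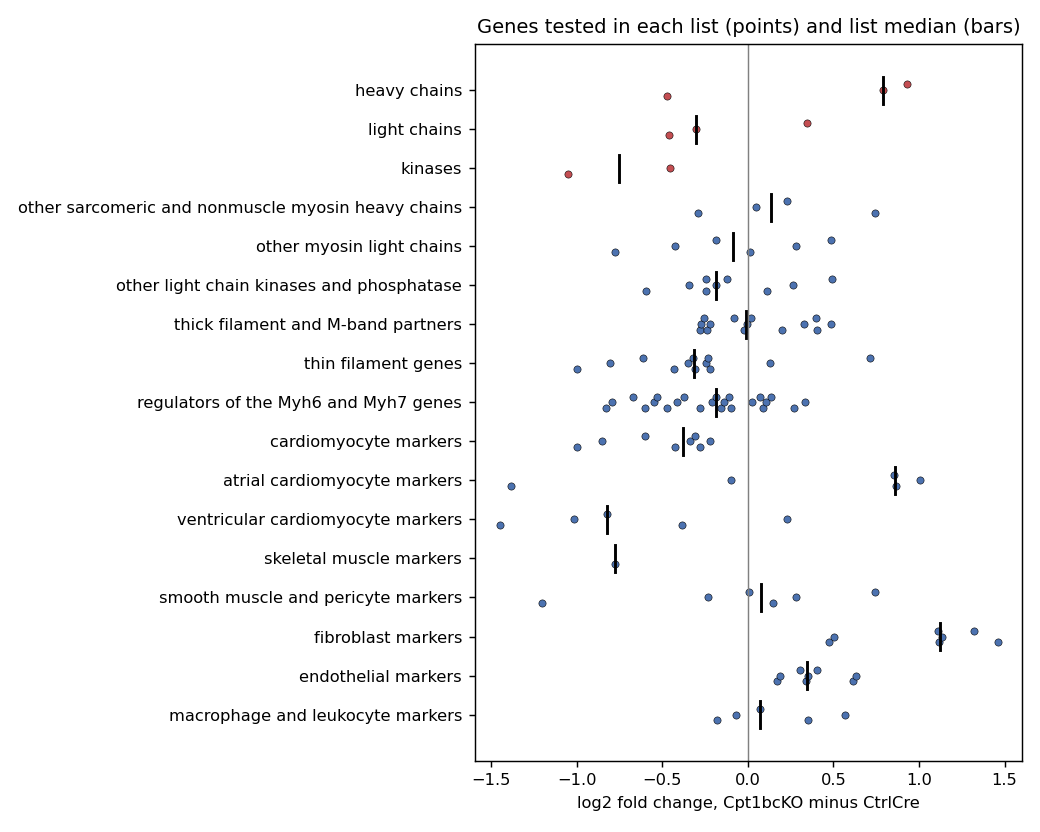
Log2 fold change (x axis, Cpt1bcKO minus CtrlCre) of every tested gene (points) in each list, with the list median as a black bar, the myosin genes and kinases under study in red and other lists in blue. The medians run from −0.82 for ventricular markers to 1.12 for fibroblast markers, and the heavy chains (0.79), light chains (−0.30) and kinases (−0.75) are the 3 rows at the top. The row of skeletal muscle markers holds 1 tested gene, Myl1. The light chain median covers Myl2, Myl3 and Myl4, the 3 of 4 that passed the filter, and was −0.52 without Cpt1bcKO sample 1, −0.12 without Cpt1bcKO sample 2 and 0.02 without the filter, with Myl7 included.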

How the data were processed

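RNA-seq of CMs from 3 CtrlCre and 3 Cpt1bcKO mice was analysed, with groups and numbers taken from the sample labels. The submitters' processing notes name Trimmomatic 0.36, STAR 2.5.4b, featureCounts 1.6.0 and DESeq2 1.14.1 and the mouse build GRCm38. The deposited values are a score, namely read counts on genes that the authors divided by size factors and rounded to whole numbers, after excluding reads on several genes or regions. Raw counts, and so depth and counting error, are not known from them. The authors' own means, fold changes and P values in the table were not used. The library kit keeps strand, but its use in counting and the annotation release are not given in the sources used here. The labels do not state that samples came from separate mice, whereas the study's methods count individual mice, and P values measure the spread between samples.

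Values were transformed to log2(value + 1), which understates changes of genes with low values, for genes with at least 10 in at least 3 samples. Genotypes were compared with limma 3.58.1 (lmFit, eBayes with trend) in R 4.3.3, with Benjamini–Hochberg adjustment over 11364 genes. Ratios were compared with the exact 2-sided permutation test over 20 assignments. The steps were tested on simulated data. Python 3.11.15, pandas 2.3.3, numpy 2.4.6 and matplotlib 3.10.9 were used for sequences and figures. Lengths are those of GENCODE vM21 transcripts, and gene coordinates those of the deposited table. Named were all members, Cpt1b, per list the genes called after adjustment or else those with the largest change, fixed landmarks, and the 3 genes most like each member. The other genes named in a list were those past the unadjusted threshold or defining its content, Mhrt, the microRNA hairpins and Xist, and were chosen after their values were seen. Members and lists were chosen with earlier results of these data known. Alternatives were other pseudocounts (0.5 and 5), filters, scalings, a single prior variance, a replicate block and leaving out samples. The values of 1 gene of the thick filament list are not reported here.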

Additional observations from a re-analysis of the deposited data

How the results depend on the processing

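Of the 120 values of the 8 tested members under alternatives, 114 kept their direction and their side of an adjusted P of 0.05, 5 newly passed it and 1 changed direction. For the unadjusted P, 91 of 120 kept both, 14 lost the call, 14 gained it and 1 changed direction, and with a single prior variance the calls of Myh7b (unadjusted P of 0.102) and Mylk3 (0.101) were lost. Counting error at low values, as in Myl4 and Myl7, cannot be given for rounded normalized counts. Genes with an adjusted P below 0.05 numbered 178 as reported, 41 with a single prior variance, 110 without replicate 1 of both groups and 40 (without Cpt1bcKO sample 2) to 305 (without Cpt1bcKO sample 1) when single samples were left out, and genes with an unadjusted P below 0.05 numbered 972 to 2208. The cause was not tested. Mylk4 passed without a filter (adjusted P = 0.0476).

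Same-numbered samples of both groups deviated together across genes, weakly for number 3 (r = 0.376, 0.255 and 0.0684). The mean r was 0.233 for the same number and −0.113 for different numbers. Whether the numbers pair the samples is not known, because the labels give only group and number. With the replicate number as a block, 603 genes passed, and at the unadjusted threshold 2362 genes did, among them 7 of the 8 tested members (all but Myl4). The blocked adjusted P was 0.0326 for Mylk4, 0.0688 for Myl2 and 0.177 for Myh6. Among the functional lists it was below 0.05 for the regulators Hopx (0.00859), Myocd (0.0157), Mef2a (0.0313) and Tbx5 (0.0399), the thin filament genes Tnni3 (0.00104), Tpm1 (0.00458), Lmod2 (0.0260) and Tmod1 (0.0490) and the kinase gene Rock1 (0.0106).

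Leaving out single samples gave log2 fold changes of −0.34 to 0.96 for Myl4, and log2 differences of −0.71 to 0.58 for Myh7b/Myh7, −0.16 to 1.29 for Myl4/Myl3, −0.27 to 0.22 for Myl4/Myl7, −0.21 to 0.14 for Myh6/Myl2 and −0.25 to 0.30 for Mylk3/Myl2, all overlapping ratios that changed direction. Medians then ranged from 0.27 to 1.15 for the heavy chains, −0.52 to −0.12 for the light chains, −0.31 to −0.10 for the regulators and −0.55 to −0.40 for CM markers. Without replicate 1 of both groups, the heavy chain median was 1.26, that of thick filament partners 0.14, Myl4/Myl7 0.15 and Myh6/Myl2 0.23, and Myh7b had an adjusted P of 0.0193. Myl4/Myl7 was 0.10 with a pseudocount of 5. The regulator median was −0.0766 with rescaled totals, the atrial median −0.10 in place of 0.86 with 10 in every sample, and the skeletal median 0 in place of −0.78 without a filter. The −0.78 was the value of Myl1 alone, the only 1 of 8 skeletal markers that passed the filter. Using the union of exons as length, an alternative chosen after seeing the data, gave Myh6 over Myl2 as 2.57 in place of 1.29.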
